A study of Mus musculus with 6 samples.

Results

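The comparison sets coelacanth POU5F1 (LcPOU5F1) against mouse OCT4 (mOct4) as the rescuing OCT4-class factor in ZHBTc4 cells. ZHBTc4 is a mouse embryonic stem cell line whose own Pou5f1 alleles, the gene of OCT4, are disrupted and which lives on an Oct4 transgene that tetracycline switches off. The members are 4 of the 6 arrays of the series, 2 clones rescued with mOct4 (clones 1 and 2) and 2 clones rescued with LcPOU5F1 (clones 4 and 5). The other 2 arrays are clones rescued with the second coelacanth paralog, LcPOU5F3, and are given beside the main values where they help. The comparison covers 14413 genes of the 20972 genes that could be named on the array.

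All clones were made in the same way, per the labels. Cells were electroporated with a linearised pCAG-IP plasmid carrying the rescuing gene, so that expression was driven by the CAG promoter, which is active in most cell types. They were grown on gelatin in serum with LIF, a cytokine that supports mouse stem cells, and with 2 µg/mL tetracycline. Selection for the plasmid with 1 µg/mL puromycin began on day 2, and stable lines were grown from colonies picked on day 9. Each line is therefore a clone that grew under selection, and the labels do not say whether clones of a group came from separate electroporations. The p-values below measure the spread between picked clones, and each group mean rests on n = 2 clones with 1 array each. The series asks which vertebrate relatives of OCT4 can support pluripotency.

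OCT4 is a transcription factor with a POU domain that reads the octamer ATGCAAAT, often side by side with SOX2 on a neighbouring SOX site. It keeps inner cell mass and embryonic stem cells pluripotent, and stem cells that lose it turn towards trophectoderm, the lineage of the placenta. Coelacanths carry both ancient members of this class, POU5F1 and POU5F3, while placental mammals have kept POU5F1 alone.

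The Nanog promoter is shown first because it holds the textbook neighbouring octamer and SOX sites, on the strand printed here, and because Nanog is one of the genes compared below. The window comes from RefSeq (GRCm38.p6, chr6:122707239-122707538, plus strand), and the capitals mark the octamer and SOX letters, an octamer variant that is not the plain ATGCAAAT.
Nanog: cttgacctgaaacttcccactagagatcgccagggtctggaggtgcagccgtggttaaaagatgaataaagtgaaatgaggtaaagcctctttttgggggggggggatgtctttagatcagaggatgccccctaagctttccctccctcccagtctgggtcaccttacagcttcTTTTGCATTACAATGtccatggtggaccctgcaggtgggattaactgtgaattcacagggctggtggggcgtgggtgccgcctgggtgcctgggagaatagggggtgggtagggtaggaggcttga
Among 11490 tested genes with a RefSeq window, which spans the start site, Nanog was the 1 gene with those 15 letters on either strand. The plain octamer ATGCAAAT, sought on both strands, was in 185 windows of tested genes (1.61%). It was in 3 of 114 windows of genes called higher in LcPOU5F1 clones (2.63%), namely Col3a1, Pik3c2g and Srgn. Of 279 windows of genes called lower, 4 held it (1.43%), namely Lurap1l, Plet1, Sh3bgrl and Synpr. These 7 are named because they are few, after their values were seen. These counts describe letters near the start site and leave out enhancers, where most OCT4 binding lies.

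Signal was measured as Cy3 spot intensity, and levels are given as log2 values relative to each array's 75th percentile, so that a level of 0 is the 75th percentile of an array's probes. Levels of different genes come from different probes and are not compared with each other. Probes well above background made up 57.6% and 57.9% of the mOct4 arrays but 48.2% and 43.7% of the LcPOU5F1 arrays, and no spot was saturated. The floor, the lowest signal well above background, had a mean of -3.53 on the mOct4 arrays and -2.39 on the LcPOU5F1 arrays. The background-corrected signal of negative control spots was 63.6 and 56.3 on the mOct4 arrays and 109 and 96.5 on the LcPOU5F1 arrays. Dim genes are therefore measured less well in the LcPOU5F1 clones. Over all tested genes, the 2 mOct4 arrays correlated at 0.994, the 2 LcPOU5F1 arrays at 0.984, and arrays of different groups between 0.970 and 0.973. The median SD of a gene between clones was 0.11 for mOct4 and 0.15 for LcPOU5F1. A single slide held mOct4 clone 1 and both LcPOU5F1 clones, and mOct4 clone 2 was on another.

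Most of the transcriptome was close between the rescues. The difference, always LcPOU5F1 minus mOct4 on the log2 scale, was within 2-fold for 92.8% of genes, and its median was 0.09. A gene was called where its limma p-value, adjusted by Benjamini-Hochberg over all tested genes, was under 0.05. A total of 505 genes were called (3.5%), of which 143 were higher (0.992%) and 362 lower (2.51%) in the LcPOU5F1 clones. An unadjusted p under 0.05 was found for 3635 of the 14413 genes. The counts of each gene list below are to be read beside these shares. Among called genes well above background on all 4 arrays, 11 were at least 4-fold higher and 19 at least 4-fold lower. The clones of the 2 groups did not overlap for any called gene, which was also the case for 60.4% of all genes tested.

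The calls rest on small groups. No gene was called when either mOct4 clone was left out (1918 genes at an unadjusted p under 0.05 without clone 1, and 1749 without clone 2), although the called genes kept their direction. The fit that also takes its spread from the LcPOU5F3 clones called 6 genes: Hoxb13, Unc5a, Gstt1 and Slc13a4 lower and Cubn and Nell1 higher. Slc13a4, a sulfate transporter, is named here because the count is small, after its value was seen.

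The dim genes need separate mention. Of the 143 genes called higher, 96 had an mOct4 mean below the highest floor of the 4 arrays, and 74 had a mean level between -3 and -2, where the median difference of all 1970 genes was 0.27. With a model-based background correction (normexp) the median rise of those 96 genes was 0.65 in place of 1.27. That correction adds an offset of 50 intensity units, which by construction draws the differences of dim genes towards 0, in falls as in rises. Among those 96 were 11 olfactory, vomeronasal or taste receptor genes, of 216 such genes tested, of which 2 were called lower. The higher background of the LcPOU5F1 arrays moves with these rises, and its part in them was not tested. Of the 362 genes called lower, 196 were not well above background on either LcPOU5F1 array, so that only a bound on their fall is known. Bounds are given as "at least N-fold", setting the brighter group against the floor, or the probe's own signal where that is higher. Restricting the fit to 10211 genes with a mean level above -1, an alternative chosen after seeing the data, gave 190 calls, 53 higher and 137 lower.

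**Figure D1:**
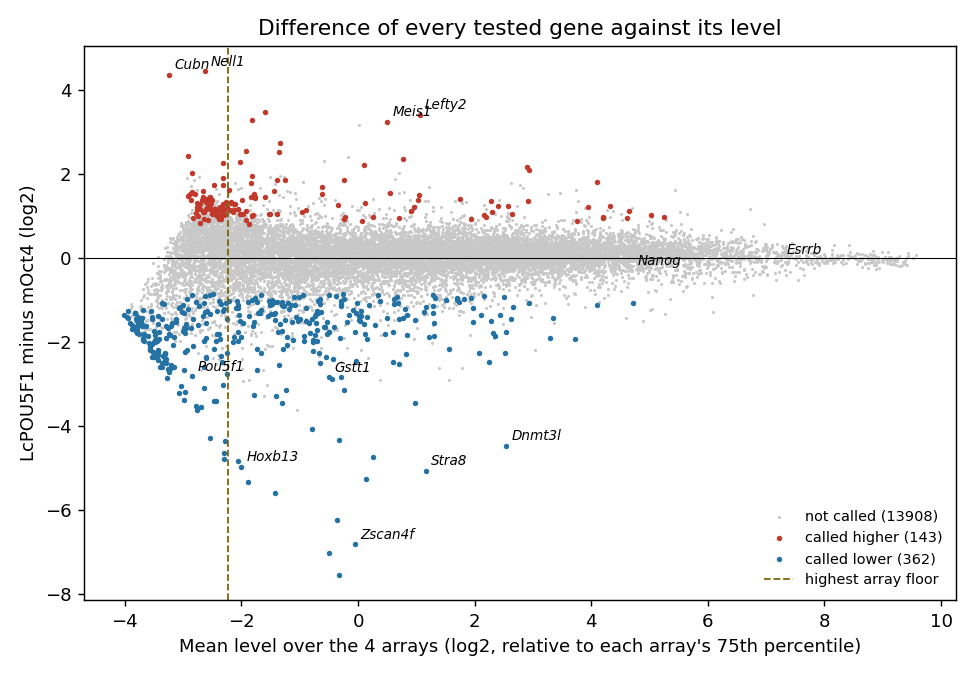
Difference between LcPOU5F1 and mOct4 clones (log2, y axis) against the mean level over the 4 arrays (log2 relative to the 75th percentile, x axis), 1 point per tested gene, with 143 genes called higher in red, 362 called lower in blue and the highest array floor as a dashed line. Most red points lie near or left of the floor, while blue points reach from the dimmest genes to a mean level above 4, with Zscan4f, Stra8 and Dnmt3l far below the cloud.

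The mouse Pou5f1 transcript was read beside the labels, since of the plasmids compared the mOct4 plasmid alone carries a mouse gene of this class. Its level was -1.58 and -1.32 in the mOct4 clones and -4.62 and -3.88 in the LcPOU5F1 clones, where the probe was not well above background. The 2 groups did not overlap, as for every called gene. Pou5f1 was at least 1.91-fold lower in the LcPOU5F1 clones, with a measured difference of -2.80 ± 0.29 (SE, adjusted p = 0.0282) and -0.70 with normexp. Where on the transcript the probe lies was not determined, so that how much of the plasmid's transcript it reads is unknown. The cells also carry the Oct4 transgene that tetracycline switches off. The values therefore cannot verify the labels. Of the 8 POU-domain genes tested, Pou5f1 was the 1 called, and the median difference of the list was 0.18.

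The naive pluripotency genes, which hold embryonic stem cells in their ground state, mostly differed by less than 2-fold between the rescues. Of the 40 members tested, 1 was called higher and 2 lower (7.5%, against 3.5% of all genes tested). An unadjusted p under 0.05 was found for 14 (3635 of all 14413 genes), and 6 were called with normexp (607 of all 14413). The median difference was -0.02. Of the 40, 35 were within 2-fold, where 92.8% of all genes were, so that the list was no closer between the rescues than all genes. All 40 were well above background on all 4 arrays. Their summed level was 10.80 and 10.84 in the mOct4 clones and 10.82 and 10.87 in the LcPOU5F1 clones. In the LcPOU5F3 clones the same sum was 9.79 and 9.35. Such sums, here and in the lists below, add the signals of different probes, so that the brightest probes weigh most.

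Esrrb, an orphan nuclear receptor of the naive network, was at 7.29 and 7.27 in the mOct4 clones and 7.19 and 7.30 in the LcPOU5F1 clones. Its difference was -0.03 ± 0.13 (SE, adjusted p = 0.892), with a 95% confidence interval from -0.38 to 0.31. The groups overlapped. Nanog, the homeodomain factor whose promoter is printed above, was at 4.86 and 4.85 (mOct4) against 4.57 and 4.55 (LcPOU5F1). Its clones did not overlap, but the difference of -0.29 ± 0.13 (SE, adjusted p = 0.232) was not called, and its other probe gave -0.01. Sox2, the partner of OCT4 on joint sites, was at 4.19 and 3.98 in the mOct4 clones and 4.22 and 4.48 in the LcPOU5F1 clones, a difference of 0.27 with an interval from -0.17 to 0.71. Zfp42 (REX1), a zinc finger marker of naive cells, was at 6.79 and 6.96 (mOct4) against 6.98 and 7.31 (LcPOU5F1), a difference of 0.27 with an interval from -0.19 to 0.73.

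Klf4, a Krüppel-like factor of the naive network, was uneven between the LcPOU5F1 clones. It was at 5.55 and 5.77 in the mOct4 clones and 4.76 and 5.75 in LcPOU5F1 clones 4 and 5, so that clone 4 was low and clone 5 stood with the mOct4 clones. The interval of its difference ran from -1.33 to 0.53. Lin28a, an RNA-binding protein that blocks let-7 maturation, had the widest interval of the 40 genes, from -2.17 to 0.95, and was low in clone 5. For genes such as these the data do not show whether the rescues differ.

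The 3 called were Alpl, Tet2 and Zfp57. Alpl, the tissue-nonspecific alkaline phosphatase whose staining marks stem cell colonies, was at 2.91 and 3.52 in the mOct4 clones and 0.67 and 1.23 in the LcPOU5F1 clones. It fell by 2.26 ± 0.30 (SE, adjusted p = 0.0380), which is 4.79-fold. The transcript was well above background on all 4 arrays. Tet2, an enzyme that oxidises 5-methylcytosine, was at 2.64 and 2.47 (mOct4) against 1.42 and 1.34 (LcPOU5F1) and fell by 1.18 ± 0.14 (SE, adjusted p = 0.0325). A second Tet2 probe gave -1.47. Zfp57, a zinc finger protein that protects methylation at imprinted loci, rose from 1.74 and 1.68 (mOct4) to 2.77 and 2.61 (LcPOU5F1), a difference of 0.98 ± 0.14 (SE, adjusted p = 0.0423), with 0.58 from a second probe.

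Several members lay past 2-fold or close to it without being called. Fbxo15, an F-box gene known as a direct target of OCT4 and SOX2, differed by -1.22 ± 0.31 (SE, adjusted p = 0.114), and Eras, a constitutively active RAS of stem cells, by -1.17 ± 0.19 (SE, adjusted p = 0.0557). Nr0b1 (DAX1), a nuclear receptor that represses OCT4 activity, differed by 1.20 ± 0.30 (SE, adjusted p = 0.107). Fgf4, the stem cell FGF under joint OCT4 and SOX2 control, differed by 0.62 ± 0.13 (SE, adjusted p = 0.0857). Tfcp2l1, a factor downstream of LIF, differed by -0.74 ± 0.18 (SE, adjusted p = 0.101). Of the 26 genes of the list of known OCT4 and SOX2 target enhancers, none was called higher and 2 were called lower, Pou5f1 and Otx2, with a median difference of 0.05. Epithelial cadherin, Cdh1, was at 2.75 and 2.53 (mOct4) against 3.60 and 2.49 (LcPOU5F1), and its groups overlapped.

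**Figure D2:**
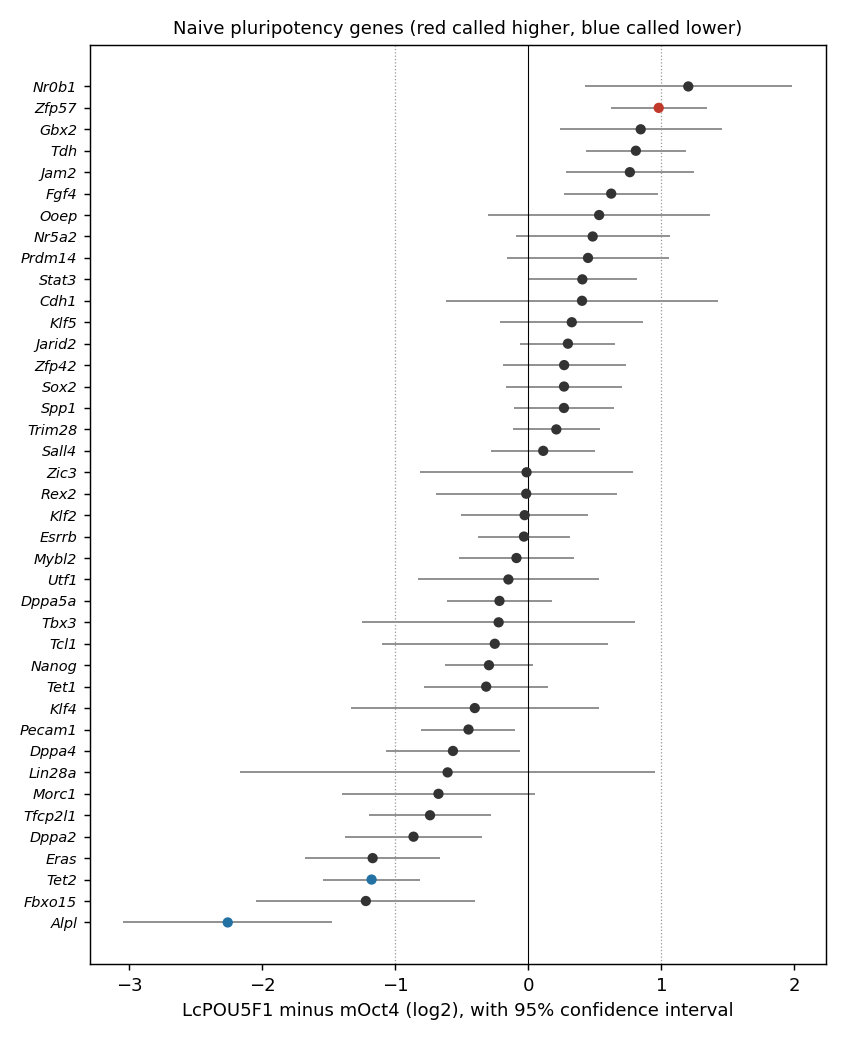
Difference between LcPOU5F1 and mOct4 clones for the 40 naive pluripotency genes tested (log2, x axis; 1 gene per row), with 95% confidence intervals from limma and dotted lines at 2-fold. The points spread evenly around 0, with Alpl and Tet2 called lower in blue and Zfp57 called higher in red, and with wide intervals for Lin28a, Tbx3 and Cdh1.

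The 2-cell-like genes held the largest fall of any list. These genes mark the rare stem cells that pass through a state resembling the 2-cell embryo. Of the 15 members tested, none was called higher and 5 were called lower, where 2.51% of all genes tested were called lower. The median difference was -0.68, against 0.09 for all genes. Of the 15, 6 were not well above background on either LcPOU5F1 array and passed the filter through the mOct4 clones alone. Members that were well above background on all 4 arrays, which number 6, had a median of -0.06. In the fit of probes above background on all 4 arrays, 1 of 6 was called higher and none lower. The list was not tested as a whole.

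Zscan4f, of the Zscan4 zinc finger cluster that acts in telomere maintenance, was at 3.42 and 3.27 in the mOct4 clones and at -2.60 and -4.33 in the LcPOU5F1 clones, where it was not well above background. It was at least 53.1-fold lower, with a measured difference of -6.81 ± 0.58 (SE, adjusted p = 0.0214). Zscan4c was at 2.89 and 2.66 (mOct4) against -1.67 and -3.31 (LcPOU5F1), a difference of -5.26 ± 0.56 (SE, adjusted p = 0.0282), and its other probes gave -5.21 and -3.82. Zscan4a was at 2.74 and 2.50 (mOct4) against -1.47 and -2.75 (LcPOU5F1), a difference of -4.73 ± 0.45 (SE, adjusted p = 0.0261). Zscan4c and Zscan4a were each well above background on 1 of the 2 LcPOU5F1 arrays. For all 3 genes the lowest mOct4 clone was far above the highest LcPOU5F1 clone. The Zscan4 genes are near-identical copies, so a probe can read more than 1 of them, and the 3 are not independent measurements.

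The likeness of the copies is seen in the promoters of the 2 Zscan4 genes that fell most, which are printed here with their longest shared run of 127 bases in capitals. They come from RefSeq (GRCm38.p6), Zscan4c at chr7:11005495-11005794 and Zscan4f at chr7:11397665-11397964, both on the plus strand.
Zscan4c: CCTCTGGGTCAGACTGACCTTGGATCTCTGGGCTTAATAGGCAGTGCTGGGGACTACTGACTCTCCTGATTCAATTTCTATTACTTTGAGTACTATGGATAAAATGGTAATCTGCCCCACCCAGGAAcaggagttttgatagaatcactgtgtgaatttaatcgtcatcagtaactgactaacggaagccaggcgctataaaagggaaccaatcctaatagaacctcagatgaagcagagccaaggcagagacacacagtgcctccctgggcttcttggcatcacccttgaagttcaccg
Zscan4f: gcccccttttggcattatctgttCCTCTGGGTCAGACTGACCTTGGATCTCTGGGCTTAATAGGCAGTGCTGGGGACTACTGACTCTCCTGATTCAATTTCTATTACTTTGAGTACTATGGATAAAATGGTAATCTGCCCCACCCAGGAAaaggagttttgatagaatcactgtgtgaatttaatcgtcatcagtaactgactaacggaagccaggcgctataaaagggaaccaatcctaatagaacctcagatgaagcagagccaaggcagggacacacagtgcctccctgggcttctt
Once aligned, 275 bases were identical and 2 differed (99.28% identical). Neither is among the windows of called genes that hold the octamer.

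The rest of the list was dimmer or level. Tcstv1, a neighbour family of the same state, was at -2.47 and -1.95 in the mOct4 clones and -3.88 and -4.30 in the LcPOU5F1 clones, at least 1.13-fold lower. Its measured difference was -1.88 ± 0.25 (SE, adjusted p = 0.0392). Tcstv3 was at -2.05 and -2.24 (mOct4) against -4.67 and -3.57 (LcPOU5F1) and was not called (adjusted p = 0.0721). Usp17le, a deubiquitinase gene, was also called lower, at -2.83 and -2.83 (mOct4) against -3.78 and -4.02 (LcPOU5F1), but its mOct4 level lay below the mean floor of the LcPOU5F1 arrays (-2.39), so no fold can be given. Zfp352, a zinc finger gene of 2-cell embryos, was at 4.08 and 4.19 (mOct4) against 4.17 and 3.56 (LcPOU5F1) and did not pass the test, nor did Sp110, Eif1a and Eif1ad, each within 2-fold.

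The LcPOU5F3 clones varied for these genes. Zscan4f was at 2.14 and -1.67 in LcPOU5F3 clones 1 and 2, and Zscan4c at 1.70 and -1.90. The difference between LcPOU5F1 and LcPOU5F3 did not pass the test for Zscan4f (adjusted p = 0.107, 6 arrays).

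**Figure D3:**
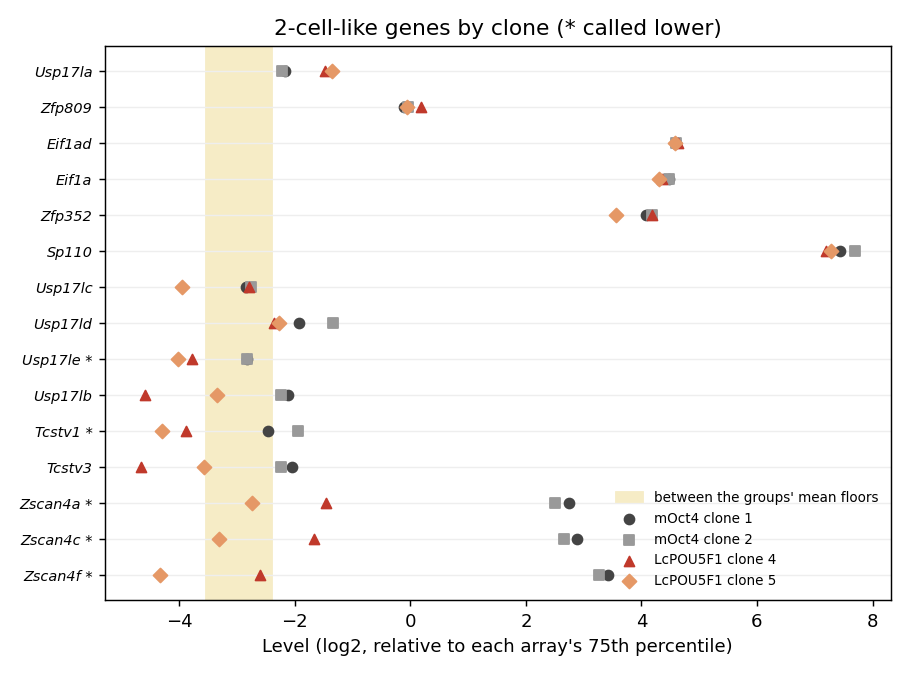
Level of the 15 tested 2-cell-like genes in each clone (log2 relative to the array's 75th percentile, x axis; 1 gene per row, 1 symbol per clone), with the band between the mean floors of the 2 groups shaded and called genes starred. The 3 Zscan4 genes lie above 2 in both mOct4 clones and below -1 in both LcPOU5F1 clones, while Sp110, Zfp352, Eif1a and Eif1ad lie close together.

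Genes of DNA methylation held 1 of the largest falls among well measured genes. Dnmt3l, the inactive partner that stimulates the de novo methyltransferases, was at 4.78 and 4.76 in the mOct4 clones and 1.16 and -0.54 in the LcPOU5F1 clones. It fell by 4.46 ± 0.57 (SE, adjusted p = 0.0359) and was well above background on all 4 arrays. Both LcPOU5F1 clones were low, clone 5 more than clone 4. The LcPOU5F3 clones were at 1.24 and -0.25, and LcPOU5F1 and LcPOU5F3 did not pass the test against each other (adjusted p = 0.863, 6 arrays). The enzymes Dnmt3l works with were not called, with -0.77 ± 0.20 (SE, adjusted p = 0.118) for Dnmt3b and -0.84 ± 0.29 (SE, adjusted p = 0.173) for Dnmt3a. The maintenance methyltransferase Dnmt1 differed by 0.31 ± 0.14 (SE, adjusted p = 0.252) and Tet1 by -0.32 ± 0.18 (SE, adjusted p = 0.327). Of the 23 genes of the list, Zfp57 was called higher and Dnmt3l and Tet2 lower, and the median difference was 0.10.

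Genes of the formative and primed epiblast, the states that follow naive pluripotency, moved in both directions. Of 20 tested, 1 was called higher and 2 lower, with a median of -0.03. Otx2, a homeobox factor that directs the exit from the naive state, was at 4.50 and 4.80 in the mOct4 clones and 3.58 and 3.50 in the LcPOU5F1 clones and fell by 1.11 ± 0.16 (SE, adjusted p = 0.0439). Eomes, a T-box factor of epiblast, mesendoderm and trophoblast, was at 1.73 and 2.17 (mOct4) against -0.39 and -0.72 (LcPOU5F1) and fell by 2.51 ± 0.22 (SE, adjusted p = 0.0224). A second Eomes probe gave -3.14. Fgf5 and T, standard markers of the primed epiblast and of mesoderm, were not well above background on both arrays of either group and were not tested.

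Lefty2, a secreted inhibitor of Nodal, had the largest called rise but for Irgm1 among the named genes above background on all 4 arrays. It was at -0.19 and -1.11 in the mOct4 clones and 2.42 and 3.12 in the LcPOU5F1 clones, a difference of 3.42 ± 0.40 (SE, adjusted p = 0.0319), or 10.7-fold. The groups lay far apart although the mOct4 clones differed from each other. It was at 3.14 and 2.00 in the LcPOU5F3 clones. Lefty2 was the 1 gene called among 22 of the Nodal and activin pathway, whose median difference was 0.24.

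Trophectoderm is the lineage to which cells without OCT4 turn, and some of its genes fell in the LcPOU5F1 clones. Of 28 tested, 4 were called lower and none higher, where 2.51% of all genes tested were called lower. An unadjusted p under 0.05 was found for 15 (3635 of all 14413 genes), and 8 were called with normexp (607 of all 14413). The median was -0.81, and 20 of the 28 differences were negative. The median was -0.32 without LcPOU5F1 clone 5 (9 called lower) and -1.04 without clone 4 (14 called lower), and no member was called without either mOct4 clone. Over the 20 members measured above background in every clone the median was -0.35. The summed level of the list was 6.83 and 6.80 in the mOct4 clones and 6.98 and 6.55 in the LcPOU5F1 clones, against 9.63 and 9.60 in the LcPOU5F3 clones. In the mOct4 clones the probes of Bmp4 (5.40 and 5.35) and Tfap2c (4.30 and 4.33) weighed most in it.

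Hand1, a helix-loop-helix factor of trophoblast giant cells, was at 1.12 and 1.13 in the mOct4 clones and -1.23 and -2.15 in the LcPOU5F1 clones and fell by 2.82 ± 0.33 (SE, adjusted p = 0.0319). Esx1, an X-linked homeobox gene of the placenta, was at 0.32 and 0.59 (mOct4) against -1.88 and -1.71 (LcPOU5F1) and fell by 2.25 ± 0.16 (SE, adjusted p = 0.0183). Plet1, a surface protein of early trophoblast, was at -0.85 and -0.86 (mOct4) against -2.22 and -2.24 (LcPOU5F1), a difference of -1.38 ± 0.13 (SE, adjusted p = 0.0250), but its second probe gave 0.07 and was not well above background in the LcPOU5F1 clones. All 3 had groups that did not overlap, as had every called gene and 60.4% of all genes tested.

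Cdx2, the homeobox factor that OCT4 holds down in the trophectoderm decision, was uneven between the LcPOU5F1 clones. It was at -0.38 and -0.46 in the mOct4 clones and -2.10 and -4.52 in LcPOU5F1 clones 4 and 5, where 1 of 2 arrays was well above background. The difference of -2.89 ± 0.80 (SE, adjusted p = 0.127) was not called. In the LcPOU5F3 clones Cdx2 was at 3.29 and 3.62, and LcPOU5F1 minus LcPOU5F3 was -6.77 (adjusted p = 0.0103, 6 arrays). Gata3 and Ascl2, further trophoblast factors, differed by -1.75 ± 0.35 (SE, adjusted p = 0.0749) and -1.77 ± 0.42 (SE, adjusted p = 0.0994). The list also had 8 positive differences, none of them called. Among these were Krt8, a keratin, with 0.76 ± 0.15 (SE, adjusted p = 0.0752), and Cdh3, a cadherin, with 0.69 ± 0.17 (SE, adjusted p = 0.104).

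Endoderm genes split within 1 receptor complex. Of 20 genes of primitive and visceral endoderm tested, 2 were called higher and 2 lower (0.992% and 2.51% of all genes tested were), with a median of 0.47. Cubn encodes cubilin, a large endocytic receptor of visceral endoderm, kidney and gut that binds with amnionless (Amn) and megalin (Lrp2). Cubn was at -5.21 and -5.66 in the mOct4 clones, where it was not well above background, and -0.81 and -1.32 in the LcPOU5F1 clones. It was at least 5.55-fold higher in the LcPOU5F1 clones, with a measured difference of 4.37 ± 0.25 (SE, adjusted p = 0.0130) and 1.40 with normexp. The LcPOU5F3 clones were at -4.34 and -4.62, also not well above background.

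Both partners of cubilin were lower. Lrp2 was at 2.64 and 2.65 in the mOct4 clones and 0.16 and 0.82 in the LcPOU5F1 clones and fell by 2.15 ± 0.25 (SE, adjusted p = 0.0319). Amn was at 0.63 and 0.52 (mOct4) against -0.75 and -1.15 (LcPOU5F1) and fell by 1.52 ± 0.19 (SE, adjusted p = 0.0340). Neither overlapped between groups, as no called gene did. Srgn, which encodes the proteoglycan serglycin, rose from -2.67 and -2.59 (mOct4) to 0.11 and -0.28 (LcPOU5F1), a difference of 2.54 ± 0.18 (SE, adjusted p = 0.0183) and 1.65 with normexp, and its promoter window is among the 3 of raised genes that hold the octamer. Gata6, the defining factor of primitive endoderm, was not well above background on both arrays of either group and was not tested. The summed level of the list was 8.33 and 8.19 in the mOct4 clones and 8.20 and 8.32 in the LcPOU5F1 clones. In the mOct4 clones the probes of Sparc (6.80 and 6.90) and Apoe (6.76 and 6.32) weighed most in it, and dim members such as Cubn hardly entered it.

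Other lineage lists held few calls in number, though a larger share than the 3.5% of all genes tested. Of 13 mesoderm genes tested, Hand1 and Eomes were called lower and Msgn1, a presomitic mesoderm factor, higher. Msgn1 was dim, at -2.86 and -2.82 in the mOct4 clones and -1.54 and -1.51 in the LcPOU5F1 clones. Of 21 neural ectoderm genes, 4 were called lower (2.51% of all genes tested were) and none higher, with a median of 0.05. Of the 21, 7 were not well above background on either LcPOU5F1 array and passed the filter through the mOct4 clones alone. The called genes Hes5 and Unc5a were among these 7. In the fit of probes above background on all 4 arrays, 2 of 13 were called lower and none higher. Stmn3, a microtubule-destabilising protein of neurons, was at 1.95 and 1.72 (mOct4) against -0.99 and -0.27 (LcPOU5F1) and fell by 2.47 ± 0.28 (SE, adjusted p = 0.0304). In the LcPOU5F3 clones it was at -4.44 and -4.55, not well above background. Hes5, a Notch target, was dim and at least 1.03-fold lower.

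Homeobox genes of body patterning included the call with the smallest adjusted p among named genes. Hoxb13, the most posterior gene of the HoxB cluster, was at 0.41 and 0.55 in the mOct4 clones and -4.63 and -4.33 in the LcPOU5F1 clones, where it was not well above background. It was at least 7.30-fold lower, with a measured difference of -4.96 ± 0.17 (SE, adjusted p = 0.00664) and -2.27 with normexp. In the LcPOU5F3 clones it was at 0.21 and -0.18, well above background on both arrays. Hoxc4 was dim and at least 1.02-fold lower. Of 13 Hox genes tested, 3 were called lower (2.51% of all genes tested were) and none higher. Of the 13, 7 were not well above background on either LcPOU5F1 array. The list's median of -0.62 became 0.23 with no filter on dim probes and 0.00 with a common floor, so it gives no direction for the family.

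Among the largest rises were Meis1, Sall3 and Runx1t1. Meis1, a TALE homeodomain partner of Hox proteins, was at -0.62 and -1.64 in the mOct4 clones and 2.03 and 2.23 in the LcPOU5F1 clones, a rise of 3.26 ± 0.36 (SE, adjusted p = 0.0304), or 9.56-fold. The LcPOU5F3 clones were at 2.60 and 2.46. Sall3, a spalt-like zinc finger factor, rose from -3.11 and -3.24 (mOct4) to -1.16 and -0.62 (LcPOU5F1), and Runx1t1, a co-repressor, from -3.20 and -3.73 (mOct4) to 0.39 and -0.75 (LcPOU5F1). Both were dim in the mOct4 clones, Runx1t1 being well above background on 1 of the 2 mOct4 arrays, and their differences of 2.29 and 3.29 became 1.07 and 1.61 with normexp. The mOct4 clones differed from each other by more than the LcPOU5F1 clones for Meis1, and their highest value was still below the lowest LcPOU5F1 value.

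Secreted cues and receptors of axon guidance changed in both directions. Of 50 tested, 3 were called higher and 2 lower, with a median of -0.01. Nell1, a secreted ligand of the Robo receptor family, had the largest rise of any gene named here. It was at -4.92 and -4.77 in the mOct4 clones, not well above background, and -0.06 and -0.72 in the LcPOU5F1 clones. Nell1 was at least 8.84-fold higher, with a measured difference of 4.46 ± 0.26 (SE, adjusted p = 0.0130) and 1.72 with normexp. The LcPOU5F3 clones were at -0.97 and -1.18, and the coelacanth paralogs did not pass the test against each other (adjusted p = 0.123).

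Netrin and one of its receptors went opposite ways. Ntn1, which encodes netrin-1, was at -0.78 and -1.23 in the mOct4 clones and 1.30 and 1.15 in the LcPOU5F1 clones and rose by 2.23 ± 0.20 (SE, adjusted p = 0.0238). Its second probe gave 1.78. Unc5a, a repulsive netrin receptor, was at -0.82 and -1.09 (mOct4) against -4.75 and -4.38 (LcPOU5F1), not well above background in the LcPOU5F1 clones, and was at least 2.70-fold lower, with a measured difference of -3.61 ± 0.19 (SE, adjusted p = 0.0130) and -1.40 with normexp. Ntn1 was at -3.98 and -3.20 in the LcPOU5F3 clones, which lay below both other groups. Sema6a, a transmembrane semaphorin, rose from -2.62 and -2.73 (mOct4) to -1.41 and -1.19 (LcPOU5F1). Efnb2, an ephrin ligand, was the other gene called lower, at -1.33 and -1.72 (mOct4) against -3.48 and -3.15 (LcPOU5F1). Its LcPOU5F1 values lay below the floors of those arrays (-2.55 and -2.22), so that the size of its fall is not measured.

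Germline genes held a steep fall. Stra8, a retinoic acid target that opens meiosis, was at 3.50 and 3.87 in the mOct4 clones and -0.24 and -2.49 in LcPOU5F1 clones 4 and 5, with 1 of the 2 LcPOU5F1 arrays well above background. Its measured difference was -5.05 ± 0.76 (SE, adjusted p = 0.0456), which takes in the value of clone 5 at background. Of 33 germline genes tested, 3 were called lower (Stra8, Smc1b and Tex101) and 1 higher, where 2.51% and 0.992% of all genes tested were. None of the 3 was well above background on both LcPOU5F1 arrays. In the fit of probes above background on all 4 arrays, 1 of 24 was called higher and none lower. Smc1b, the meiotic cohesin subunit, was at -0.36 and -0.62 (mOct4) against -2.11 and -2.39 (LcPOU5F1), and Tex101, a germ cell surface protein, was at least 1.41-fold lower. Tex15, needed for meiotic recombination and transposon silencing, rose from -1.17 and -1.18 (mOct4) to 0.88 and 0.52 (LcPOU5F1), a difference of 1.88 ± 0.17 (SE, adjusted p = 0.0250). The synaptonemal protein Sycp3, at 2.98 and 2.42 (mOct4) against 0.93 and -0.76 (LcPOU5F1), was not called (adjusted p = 0.0921). The list's median was -0.47, but -0.07 over the 24 members measured above background in every clone.

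The retinoid list held 5 of its 20 members called lower (2.51% of all genes tested were) and none higher, although its median was -0.02. Beside Stra8 these were Rbp4, the serum retinol carrier, Crabp1, a cellular retinoic acid binding protein, Cyp26a1, which breaks retinoic acid down, and Rarb, a receptor that is itself a target. Rbp4 was at -0.04 and -0.24 in the mOct4 clones and -1.50 and -1.76 in the LcPOU5F1 clones and fell by 1.49 ± 0.17 (SE, adjusted p = 0.0304). Crabp1 was at 0.40 and 0.15 (mOct4) against -0.84 and -0.86 (LcPOU5F1) and fell by 1.13 ± 0.15 (SE, adjusted p = 0.0380). Cyp26a1 was not well above background in the LcPOU5F1 clones and was at least 2.04-fold lower. Rarb was near the floor in both groups. Its difference of -1.34 turned to 0.44 when dim probes were not filtered and another Rarb probe stood for the gene. In the fit of probes above background on all 4 arrays, 2 of 16 retinoid genes were called lower and none higher.

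A pair of neighbouring cell cycle inhibitors was called higher. Cdkn2a, which encodes p16INK4a and p19ARF, was at 2.23 and 1.38 in the mOct4 clones and 3.95 and 4.02 in the LcPOU5F1 clones and rose by 2.18 ± 0.30 (SE, adjusted p = 0.0420), or 4.53-fold. Its second probe gave 2.35, and the LcPOU5F3 clones were at 4.25 and 4.55. Cdkn2b (p15INK4b), its neighbour in the genome, rose from -2.64 and -2.83 (mOct4) to -0.85 and -1.02 (LcPOU5F1), a difference of 1.80 ± 0.15 (SE, adjusted p = 0.0208) and 0.91 with normexp. Both LcPOU5F1 clones were above both mOct4 clones for each gene, as for every gene called higher. No other gene of the 43 cell cycle and replication genes tested was called, and the median was 0.19. Of 30 p53 targets, 2 were called higher, where 0.992% of all genes tested were. These were Btg2, an antiproliferative gene, by 0.99 ± 0.13 (SE, adjusted p = 0.0370), and Phlda3, an inhibitor of AKT, by 0.96 ± 0.13 (SE, adjusted p = 0.0398).

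Genes of fibroblasts and mesenchyme were called lower in 4 cases and higher in 1, of 25 tested, where 2.51% and 0.992% of all genes tested were. The median was -0.48, but -0.22 over the 19 members measured above background in every clone. Timp3, an inhibitor of metalloproteinases, was at -0.88 and -0.58 in the mOct4 clones and -3.90 and -4.35 in the LcPOU5F1 clones, at least 3.16-fold lower. Thy1, a surface antigen, was at 0.85 and 0.42 (mOct4) against -1.17 and -1.36 (LcPOU5F1) and fell by 1.90 ± 0.20 (SE, adjusted p = 0.0282). Lgals1 (galectin-1) fell by 1.05 ± 0.15 (SE, adjusted p = 0.0443), and the matrix protein gene Ccn1 fell by 1.05 ± 0.14 (SE, adjusted p = 0.0380). Col3a1, a fibrillar collagen, was dim and differed by 0.95 ± 0.14 (SE, adjusted p = 0.0443). The summed level of the list was 7.55 and 7.66 in the mOct4 clones, 6.90 and 7.28 in the LcPOU5F1 clones, and 9.85 and 10.6 in the LcPOU5F3 clones. Timp3, not well above background in the LcPOU5F1 clones, was at 3.44 and 4.14 in the LcPOU5F3 clones. For Thy1, Lgals1 and Ccn1, LcPOU5F1 minus LcPOU5F3 was -3.24, -3.44 and -5.00 (log2, adjusted p = 0.00493, 0.00336 and 0.00266, 6 arrays).

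Epithelial adhesion genes gave no call among 29 tested. An unadjusted p under 0.05 was found for 7 (3635 of all 14413 genes), and 2 were called with normexp (607 of all 14413). The median was 0.39 and 23 of the 29 differences were positive, and the LcPOU5F1 clones were uneven. Cldn6, a claudin of embryonic epithelia, was at -2.29 and -2.37 in the mOct4 clones and 0.71 and -1.44 in LcPOU5F1 clones 4 and 5. Grhl2, a regulator of epithelial genes, was at 0.04 and -0.19 (mOct4) against 2.15 and 0.09 (LcPOU5F1), and Epcam, an adhesion molecule, at 0.66 and 0.37 (mOct4) against 2.42 and 1.34 (LcPOU5F1). In all 3 genes clone 4 was the highest of the 4 arrays. Without clone 5, 13 members were called higher, and without clone 4 the median of the list was -0.09.

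Stress and metabolic genes changed in single cases. Of 27 genes of the integrated stress response, the programme run by ATF4, 3 were called lower (2.51% of all genes tested were) and none higher. The median was -0.35 and 23 differences were negative. Atf3, a stress-induced transcription factor, was at 0.09 and -0.23 in the mOct4 clones and -1.29 and -1.75 in the LcPOU5F1 clones and fell by 1.45 ± 0.22 (SE, adjusted p = 0.0478). Cebpb, a bZIP factor of the same response, was at 1.89 and 1.67 (mOct4) against 0.45 and 0.55 (LcPOU5F1) and fell by 1.28 ± 0.15 (SE, adjusted p = 0.0319). Aldh1l2, a mitochondrial folate enzyme, was dim and at least 1.17-fold lower. Cth, which makes cysteine, was at 3.33 and 2.83 (mOct4) against 1.42 and -0.47 (LcPOU5F1) and was not called (adjusted p = 0.109).

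Gstt1, a theta-class glutathione transferase, was at 1.04 and 0.78 in the mOct4 clones and -2.01 and -1.82 in the LcPOU5F1 clones and fell by 2.83 ± 0.16 (SE, adjusted p = 0.0130), or 7.10-fold. It was the 1 call among 22 glutathione transferase genes (4.5%, against 3.5% of all genes tested). The LcPOU5F3 clones were at -2.27 and -2.32, close to the LcPOU5F1 clones. Eno2, the neuronal enolase, was the 1 call among 34 genes of glycolysis and the hypoxia response (2.9%), and fell by 1.09 ± 0.16 (SE, adjusted p = 0.0434). Among 27 imprinted genes, Magel2 and Nap1l5 were called lower, both near the floor. Nap1l5 had a difference of -1.37, which turned to 0.85 when dim probes were not filtered and another probe stood for it.

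Signalling pathways held isolated calls, where 3.5% of all genes tested were called. Smad6, an inhibitor of BMP signalling, was at 1.83 and 2.48 in the mOct4 clones and 0.47 and 0.08 in the LcPOU5F1 clones and fell by 1.87 ± 0.28 (SE, adjusted p = 0.0447), the 1 call among 19 BMP and Id genes. Notum, a secreted enzyme that inactivates Wnt ligands, was at 3.23 and 3.13 (mOct4) against 5.29 and 4.72 (LcPOU5F1) and rose by 1.82 ± 0.23 (SE, adjusted p = 0.0342), the 1 call among 36 Wnt genes. Socs2, a feedback inhibitor of cytokine signalling, had the largest difference of the LIF and STAT3 list, at 2.19 and 2.00 (mOct4) against 3.61 and 3.09 (LcPOU5F1), but was not called (adjusted p = 0.0611). Of 21 immediate early genes, Btg2 was called higher and Atf3 and Ccn1 lower. Ier3, a stress-response gene, at -1.61 and -1.75 (mOct4) against -2.83 and -4.47 (LcPOU5F1), was not called (adjusted p = 0.129).

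Of the 35 lists, 9 had no called member in 237 tested. Of these 237 genes, 60 were at an unadjusted p under 0.05, a share like that of all genes tested (3635 of 14413). The 9 lists were epithelial adhesion, cholesterol and fatty acid synthesis, FGF and ERK signalling, LIF and STAT3 signalling, Hedgehog signalling, heat shock chaperones, Polycomb and chromatin regulators, oxidative phosphorylation, and SOX factors. Their medians lay between -0.14 and 0.39. All 36 oxidative phosphorylation genes, 33 Polycomb and chromatin genes, 32 lipid synthesis genes and 23 chaperones were within 2-fold. Differences in them included 0.77 ± 0.14 (SE, adjusted p = 0.0620) for Cox6a2, a dim subunit of cytochrome oxidase, 0.76 ± 0.18 (SE, adjusted p = 0.102) for the desaturase Scd2, and 0.68 ± 0.13 (SE, adjusted p = 0.0730) for the co-chaperone Chordc1. Sox21, a neural SOX factor, was at 1.68 and 1.76 in the mOct4 clones and 2.75 and 4.29 in LcPOU5F1 clones 4 and 5, both above the mOct4 clones but far apart, and was not called (adjusted p = 0.132). Boc, a Hedgehog co-receptor, had the largest measured difference of its list, -1.31 ± 0.45 (SE, adjusted p = 0.175) and -0.42 with normexp. It was not well above background on either LcPOU5F1 array, so that only a bound of at least 1.43-fold is known for it.

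**Figure D4:**
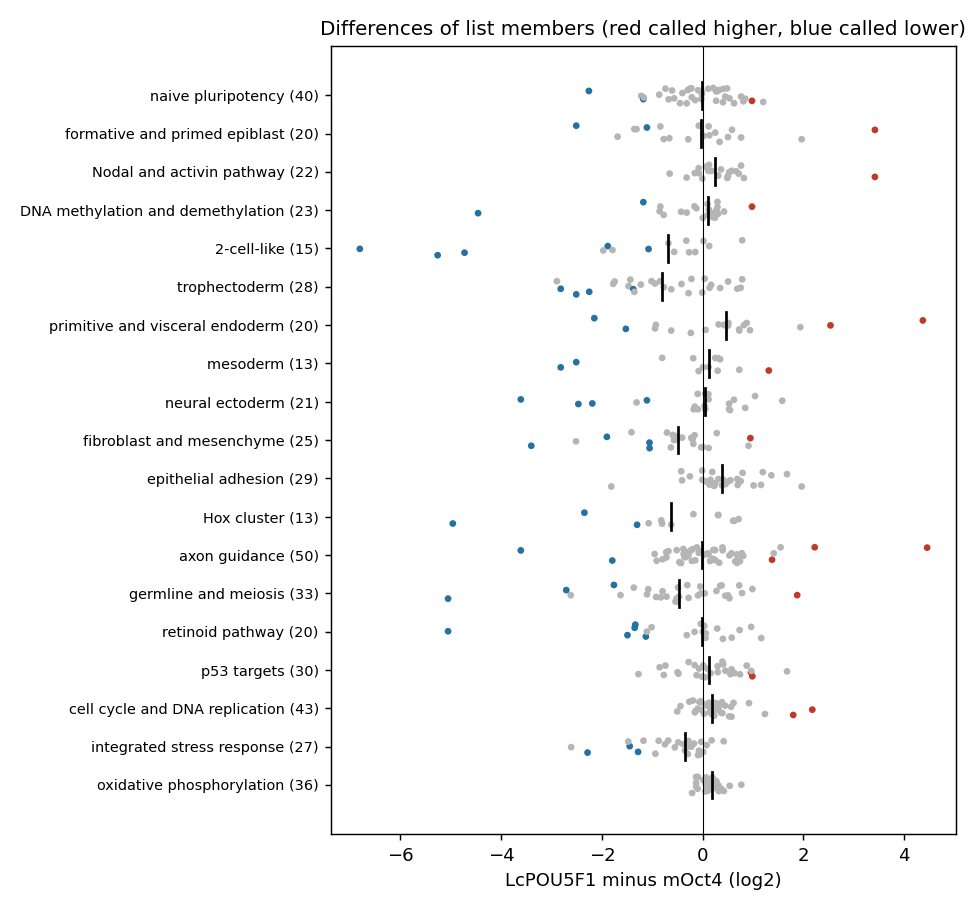
Difference between LcPOU5F1 and mOct4 clones (log2, x axis) for the tested members of 19 gene lists (rows, with the number of genes), 1 point per gene, red for called higher, blue for called lower, grey for not called and a black bar at the list's median. Naive pluripotency and oxidative phosphorylation genes gather near 0, while the 2-cell-like, trophectoderm and Hox rows reach far to the left.

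The remaining large differences among genes well above background on all 4 arrays fell in no single list. Irgm1, an interferon-induced GTPase of defence against intracellular microbes, was at -3.39 and -3.27 in the mOct4 clones and 0.78 and -0.47 in the LcPOU5F1 clones and rose by 3.49 ± 0.43 (SE, adjusted p = 0.0342), the steepest rise of this kind (2.22 with normexp). Samd9l, an antiviral and growth-restraining gene, rose from -2.95 and -2.49 (mOct4) to -0.16 and 0.21 (LcPOU5F1), and Mycl, a Myc family factor, from -3.44 and -2.96 (mOct4) to -1.11 and -0.16 (LcPOU5F1). Fam25c was at 2.00 and 1.74 (mOct4) against 3.72 and 4.24 (LcPOU5F1), and Egf, the epidermal growth factor, at -2.85 and -2.73 (mOct4) against -1.25 and -0.42 (LcPOU5F1). Mal, a raft protein, was not well above background in the mOct4 clones and was at least 3.54-fold higher.

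Among the falls of this kind, Slc9b2, a sodium-proton exchanger, was at 1.01 and 0.97 in the mOct4 clones and -2.06 and -1.73 in the LcPOU5F1 clones and fell by 2.88 ± 0.16 (SE, adjusted p = 0.0130). Pla2g10, a secreted phospholipase, was at 3.33 and 3.61 (mOct4) against 1.44 and 0.58 (LcPOU5F1) and fell by 2.46 ± 0.32 (SE, adjusted p = 0.0377). Sct, the hormone secretin, was at 1.92 and 1.98 (mOct4) against -0.48 and -0.16 (LcPOU5F1), with the LcPOU5F3 clones at 3.89 and 3.06. Itga7, a laminin-binding integrin, Chst8, a sulfotransferase, and Pramel20, of the PRAME-like family, differed by -2.44, -2.49 and -2.40 and were called lower. Of genes that were not well above background in the LcPOU5F1 clones, Oasl2, an interferon-induced gene, was at least 5.54-fold lower, Pramel39 at least 4.87-fold, Aatk, a kinase of neurons, at least 3.06-fold, Tmem92 at least 2.75-fold and Dnah10, an axonemal dynein, at least 2.58-fold. Groups that did not overlap were part of the rule that picked these genes.

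**Figure D5:**
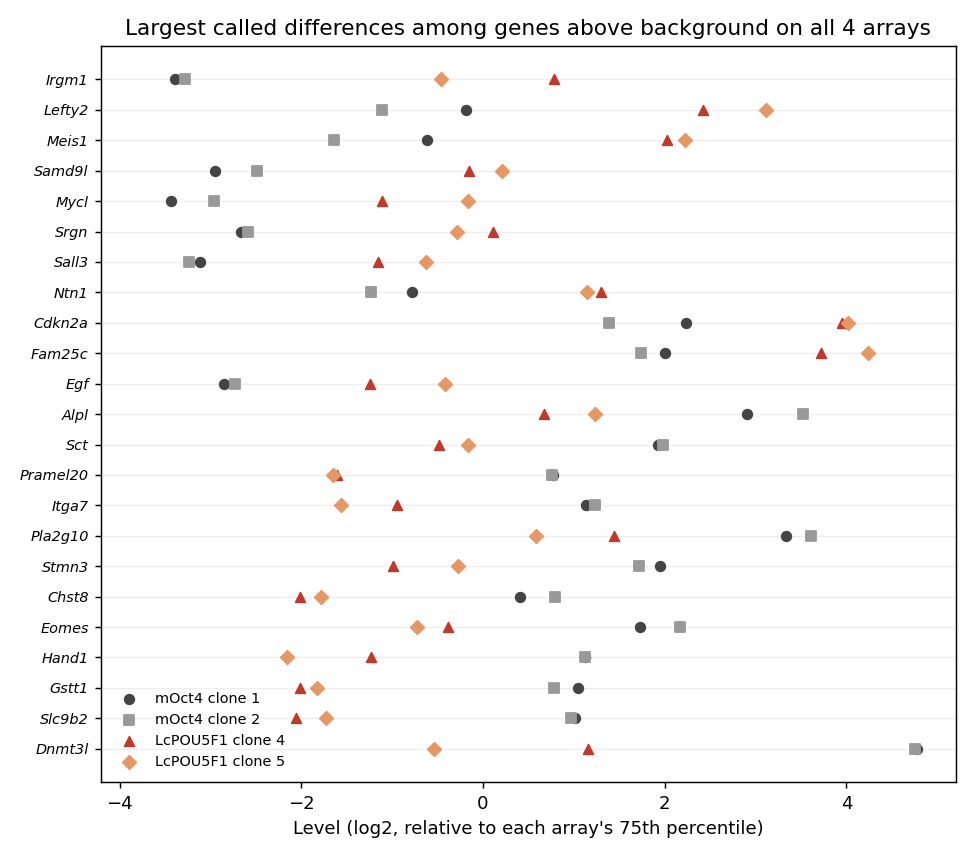
Level in each clone (log2 relative to the array's 75th percentile, x axis; 1 symbol per clone) of 11 of the 12 genes called higher and of the 12 called lower with the largest differences among genes well above background on all 4 arrays (rows). Genes with a placeholder symbol were left out. By the rule that picked the rows, the 2 LcPOU5F1 clones lie on 1 side of the 2 mOct4 clones in each row. There is a wide gap between LcPOU5F1 clones for Dnmt3l and between mOct4 clones for Meis1.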

How the data were processed

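The authors extracted spot intensity from each 1-colour Cy3 array with Agilent Feature Extraction 11.0.1.1 (protocol GE1_1100_Jul11), per the file headers, and the deposited processed intensity is linear and background-subtracted. The flags for signals well above background and for outlying spots are the authors' deposited flags. The array design names the build mm9. The deposited series matrix gave the same calls. Control and outlier spots were left out, spots of a probe were averaged, and log2 values were taken relative to each array's 75th percentile. A probe was kept if well above background on both arrays of either group. Accessions were named through RefSeq (GRCm38.p6, names and promoters only), which left 28025 of 55681 probes (50.3%) unnamed. The kept probe with the highest mean stood for a gene.

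The 4 arrays were fitted by lmFit and eBayes (limma 3.58.1, R 4.3.3), with 2 residual degrees of freedom (4.66 after moderation) and Benjamini-Hochberg adjustment. The tests against LcPOU5F3 come from a limma fit of all 6 arrays. An exact permutation test of 2 against 2 clones could not go below 0.333, two-sided. On simulated data of 14413 genes 12% of 50 genes given a log2 change of 1 were called, and 90% of 50 given a change of 2, with 11 false calls among all genes. The 35 gene lists, the rule and the tests were chosen with earlier results of these data known. The rule left out genes with a placeholder symbol (a Gm, Rik, LOC or accession name) and genes whose clones overlapped between the groups. Among the rest it named the 12 largest called rises and falls, and the same among those above background on all 4 arrays. Up to 4 members per list were also named by it. Named whatever their values were Cdh1, Cdx2, Cubn, Esrrb, Fgf5, Gata6, Gstt1, Hoxb13, Klf4, Nanog, Nell1, Pou5f1, Sox2, T, Unc5a and Zfp42. Values of a few genes picked by it are left out. Other list members in the text were chosen after their values were seen. For normexp (offset 50) the median spot intensity was used.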

Additional observations from a re-analysis of the deposited data

How the results depend on the processing

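The 505 calls (143 higher, 362 lower) kept their direction without each clone in turn, but their number did not hold. Leaving out 1 clone gave from 0 to 1559 calls, from 0 to 623 higher and from 0 to 936 lower. It was 0 without either mOct4 clone and 1559 or 1404 without LcPOU5F1 clone 4 or 5, where the lone clone is assumed to vary like the mOct4 pair and all 505 calls were kept. The slide as a block, which equals leaving out mOct4 clone 2, gave 0 calls, 0 higher and 0 lower. Fitting all 6 arrays gave 6 (2 and 4), and a common floor on dim signals 13 (0 and 13). No filter on dim probes gave 3676 (3061 and 615), and probes above background on all 4 arrays 344 (161 and 183). Normexp gave 249 higher, quantile normalization 79 and an intensity trend 221, so that higher genes made up 41.0%, 15.7% and 36.1% of calls against 28.3%. A threshold of 0.01 gave 9 (0 and 9), and 0.10 gave 1395 (674 and 721). A mean level above -1 gave 190 (53 and 137). Centring on the median, robust variances, the mean of a gene's probes, the series matrix and probes kept through any group stayed within 1.5 times. Among named genes, Nap1l5 (0.85) and Rarb (0.44) turned to a positive difference with no filter on dim probes. Except for the different probes in the last case and the fewer arrays, the cause was not tested. Low signal limits the 196 falls that end at background. No paired analysis was possible because the clones compared share no number (1 and 2 against 4 and 5).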

Other observations

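Of the 20 genes with the largest called fall in the LcPOU5F1 clones, 10 had a placeholder symbol, as had 37 of the 362 genes called lower (10.2%) and 684 of all genes tested (4.75%). Of these 20 genes, 15 were not well above background on either LcPOU5F1 array, so their order is not a measured one. Of the 10, AF067061 was at 3.51 and 3.39 in the mOct4 clones and -3.67 and -4.50 in the LcPOU5F1 clones, and Gm20767 was at 3.04 and 2.98 (mOct4) against -3.51 and -4.49 (LcPOU5F1). Both were chosen after their values were seen.

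The PRAME-like family, a cluster of repeated genes active in early embryos and germ cells, had 9 genes tested, of which 5 were called lower and 1 higher. Of those called lower, 4 were not well above background on either LcPOU5F1 array and passed the filter through the mOct4 clones alone. Over the 5 genes above background in every clone, 1 was called in each direction and the median difference was -0.40. Pramel20, measured in every clone, was at 0.77 and 0.76 (mOct4) against -1.61 and -1.65 (LcPOU5F1). Pramel39 was at least 4.87-fold lower and Pramel31 at least 1.82-fold. Pramel31 was at -1.49 and -1.55 in the mOct4 clones and -4.71 and -4.39 in the LcPOU5F1 clones, and Pramel50 at -1.34 and -1.59 (mOct4) against -4.84 and -4.48 (LcPOU5F1). Pramel13 was the 1 called higher, at 3.31 and 3.34 (mOct4) against 4.60 and 4.49 (LcPOU5F1). Members are similar in sequence, a probe may read several, and the family was picked after its values were seen, so no test was made.

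Interferon-related genes, also listed after values were seen and not tested as a list, split. Of 25 tested, 4 were called lower and 2 higher, with a median of 0.12. Oasl1, of the oligoadenylate synthetase family, was at 0.34 and 0.30 in the mOct4 clones and -2.54 and -3.07 in the LcPOU5F1 clones. The lymphoid factor Irf8 was at -0.93 and -0.82 (mOct4) against -3.66 and -3.58 (LcPOU5F1). The floors of LcPOU5F1 clones 4 and 5 were -2.55 and -2.22. Irf8 lay below the floor in both and Oasl1 in clone 5, so that the size of these falls is not measured. Oas1a was at 3.15 and 3.34 (mOct4) against 2.05 and 2.11 (LcPOU5F1). Irgm1 and Samd9l were the 2 called higher, and Isg15, a common marker of interferon signalling, was at -1.59 and -1.62 (mOct4) against -1.34 and -1.83 (LcPOU5F1).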
